A study of Rattus norvegicus with 8 samples.

Results

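The 43 genes described here carry transforming growth factor beta (TGF-beta) and bone morphogenetic protein (BMP) signalling, and were followed in the thoracic aorta of rats given nitroglycerin or its vehicle. They were taken by symbol from a list of ligands, receptors, latency proteins, inhibitors, SMAD proteins and response genes, and the row of highest mean was used where a symbol had several rows. Of the 43, 42 had a row among the 27742 of the gene table, and 37 passed a filter of at least 1 FPKM (fragments normalized for transcript length and library size) in at least 4 of the 8 libraries. Smad2 had no row under that symbol and was not analysed here.

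Ligands of this family are secreted as dimers that bring together type I and type II serine/threonine kinase receptors. The type I receptor then phosphorylates receptor-regulated SMAD proteins, which join SMAD4 and act on transcription in the nucleus. TGF-beta itself is stored in the matrix in a latent form, bound to latent TGF-beta binding proteins (LTBPs). In the arterial wall the pathway is known for its part in matrix production, in the state of smooth muscle cells and in the stability of the endothelium.

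Both groups were 4 libraries from wild type male Sprague Dawley rats, labelled as 12 weeks old and 180 to 200 g, and it is not stated if the 4 libraries of a group are 4 different rats. Treated rats had received nitroglycerin (glyceryl trinitrate, an organic nitrate that relaxes vessels) at 100 mg/kg under the skin, 3 doses a day over 3 days. Control rats had received the ethanol vehicle on the same schedule. Total RNA was depleted of ribosomal RNA before sequencing, and the protocol text refers to an adipose type although the tissue is labelled aorta.

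The libraries held 7.48 to 8.86 Gb of aligned sequence in controls and 6.77 to 8.39 Gb in nitroglycerin samples. Smooth muscle markers, those of the arterial media, had a summed level of 2193 to 2857 FPKM in controls and 1341 to 2736 FPKM in nitroglycerin libraries. The mean log2 levels of smooth muscle, adventitial fibroblast, adipocyte and skeletal muscle markers gave two-sided exact permutation p-values of 0.314, 0.229, 0.286 and 0.0571 between groups as deposited (n = 4). Nitroglycerin library 1 stood apart in adipocyte markers, with a summed level of 217 FPKM against 21.0 to 52.1 FPKM in the other 7 libraries. Most genes had higher FPKM in the nitroglycerin group, with a median log2 difference of 0.30 over all 12977 rows tested. Differences are therefore given as deposited and, for many genes, again after median-of-ratios rescaling. The rescaling divides each library by the median ratio of its genes to their geometric means over libraries, and brought the median difference to 0.01. A log2 difference given without a scaling is as deposited. In bulk tissue, fewer cells of a type and less RNA per cell cannot be told apart.

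None of the 37 tested members passed the test between groups in either scaling. In limma on log2(FPKM + 1) with Benjamini-Hochberg adjustment over all rows tested, 0 of 37 members were higher and 0 lower at an adjusted p under 0.05, where the shares over all genes were 1.29% higher and 0.0616% lower. After rescaling the counts were again 0 and 0, beside shares of 0.0308% and 0.1%. The calls depended on the variance model and the rows tested: with libraries weighted by their residual spread, 6 members were higher and 1 lower, beside 14.5% and 0.408% of all genes, and over annotated rows only, 4 were higher and 0 lower, beside 8.05% and 0.148%. At an unadjusted p under 0.05, 9 members were higher and 1 lower as deposited, beside 34.1% and 1.02% of all genes, so the share of members on the higher side was below that of the table. After rescaling, 1 was higher and 3 lower, beside 5.5% and 6.44%. With the replicate number as a block the counts were 13 and 1, beside 29.8% and 1.29%, and 4 and 4 after rescaling, beside 5.72% and 6.7%. The members' median log2 difference was 0.30 as deposited, equal to that of all genes, and -0.00023 after rescaling, and 19 of 37 were above the median gene as deposited. Of the members, 32 of 37 were above 0 as deposited and 18 of 37 after rescaling, beside 86.6% and 52.4% of all genes.

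**Figure D1:**
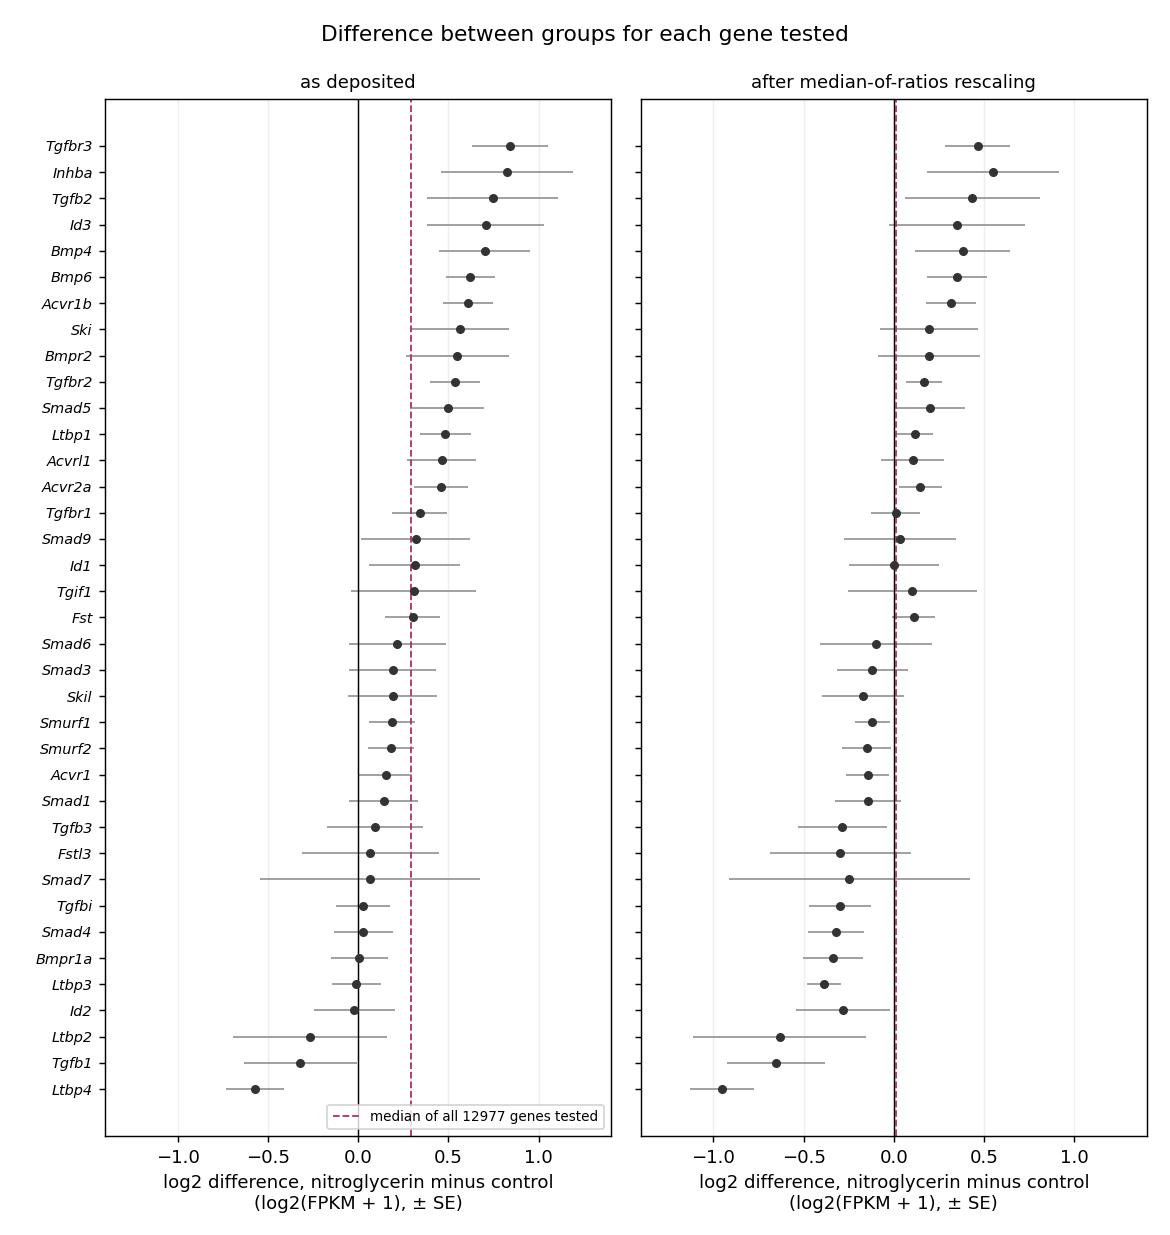
Difference of each tested gene between nitroglycerin and control libraries on the log2(FPKM + 1) scale, as deposited (left) and after rescaling (right), with points for the limma estimate, bars for its standard error, and a dashed line at the median of all 12977 genes. Tgfbr3 lies highest as deposited at 0.84 and Ltbp4 lowest in both panels at -0.57 and -0.95.

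The 4 values of a group did not overlap those of the other group in 7 members as deposited. Of these, 6 were higher after nitroglycerin, namely the ligand Bmp6, the receptors Acvr1b, Tgfbr2 and Tgfbr3, the latency protein Ltbp1 and the response gene Id3. Only Ltbp4 was lower. Over all genes tested, the groups did not overlap in 24.2% in the higher direction and in 0.478% in the lower one. After rescaling, 0 members were separated upwards (3.78% of all genes) and 2 downwards (4.45% of all genes), namely Ltbp4 and Ltbp3.

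The sequence before the start is shown for 4 members, the 3 of lowest p as deposited (Bmp6, Acvr1b and Tgfbr3) and the one of lowest p after rescaling (Ltbp4). Each line gives the 250 bases before the annotated start, from RefSeq on build GRCr8, written 5′ to 3′ along the gene, with GGCGCC, a core known from BMP-responsive elements, in capitals.
Bmp6, chr17:26675262-26675511, minus strand: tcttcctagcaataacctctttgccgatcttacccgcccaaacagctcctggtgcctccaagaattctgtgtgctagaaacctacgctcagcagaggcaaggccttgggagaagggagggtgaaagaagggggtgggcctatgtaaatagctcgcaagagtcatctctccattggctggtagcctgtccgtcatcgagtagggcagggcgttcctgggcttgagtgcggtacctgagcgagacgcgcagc
Tgfbr3, chr14:2634044-2634293, plus strand: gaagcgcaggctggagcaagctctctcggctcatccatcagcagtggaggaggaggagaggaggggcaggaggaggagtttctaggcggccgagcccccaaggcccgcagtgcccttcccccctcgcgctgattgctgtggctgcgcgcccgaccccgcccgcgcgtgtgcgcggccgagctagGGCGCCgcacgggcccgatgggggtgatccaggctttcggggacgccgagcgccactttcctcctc
Acvr1b, chr7:134164751-134165000, plus strand: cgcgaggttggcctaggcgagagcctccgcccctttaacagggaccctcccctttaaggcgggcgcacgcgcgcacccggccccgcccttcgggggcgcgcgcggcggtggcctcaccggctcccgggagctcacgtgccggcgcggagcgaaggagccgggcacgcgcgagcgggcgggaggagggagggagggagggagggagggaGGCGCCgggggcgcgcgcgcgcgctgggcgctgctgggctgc
Ltbp4, chr1:91759808-91760057, minus strand: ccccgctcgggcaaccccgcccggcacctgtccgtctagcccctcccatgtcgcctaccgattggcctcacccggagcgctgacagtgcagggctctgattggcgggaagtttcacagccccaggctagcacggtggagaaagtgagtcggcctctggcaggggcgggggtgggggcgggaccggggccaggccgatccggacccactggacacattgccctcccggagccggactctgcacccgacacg
GGCGCC occurred once in the Tgfbr3 stretch, 66 bases before the start, and once in the Acvr1b stretch, 42 bases before the start. It was in neither of the others. Of the 35 members with a single promoter entry, 10 held it (28.6%), against 8.69% of 33469 promoters of the same length. The members' stretches were also richer in G and C, with a median of 65.6% against 51.2%, and the part of base composition in that share was not tested. CAGACA, a core bound by SMAD3 and SMAD4, was searched on both strands (also as TGTCTG) and was in 3 of 35 members (8.57%) against 17.2% of all promoters. GGCGCC is its own reverse complement, and matches of the 2 motifs may share an end base. These matches describe letters and were set against no binding data.

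As deposited, the ligand Bmp6 had the lowest p of all members, and the TGF-beta isoform with the highest level was Tgfb3. Bmp6, a BMP ligand with a known role in iron balance, was measured at 2.03, 1.29, 1.39 and 1.80 FPKM in controls and at 2.40, 3.37, 3.06 and 3.29 FPKM in nitroglycerin libraries. Every nitroglycerin value was above the highest control, by a small margin for library 1. The means were 1.63 ± 0.346 and 3.03 ± 0.441 FPKM (SD, n = 4), a difference in log2 of 0.62 (SE 0.14, limma adjusted p = 0.0561). After rescaling the difference was 0.35 (limma adjusted p = 0.461), and the groups overlapped.

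Bmp4, a BMP ligand of mesenchymal and vascular cells, was measured at 4.36, 3.87, 2.32 and 2.57 FPKM in controls and at 6.88, 3.46, 8.64 and 5.37 FPKM after nitroglycerin. The groups overlapped because nitroglycerin library 2 lay among the controls. Its log2 difference was 0.70 (SE 0.25, limma adjusted p = 0.0972), and 0.38 after rescaling (limma adjusted p = 0.608).

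Of the 3 TGF-beta isoforms, Tgfb3 made up 76.4 ± 7.99% of their total FPKM in controls and 75.3 ± 7.41% in treated libraries (SD, n = 4), a share that does not depend on how libraries are scaled. Its level was 40.9 ± 12.2 and 44.2 ± 15.8 FPKM, with a difference in log2 of 0.09 as deposited and -0.29 after rescaling. Tgfb1, the isoform best known from wound repair and fibrosis, was measured at 4.48, 15.6, 11.2 and 6.0 FPKM in controls and at 6.65, 6.76, 5.82 and 6.92 FPKM after nitroglycerin. Controls were spread widely around a narrow nitroglycerin group. Its log2 difference was -0.32 (SE 0.31, limma adjusted p = 0.465) and -0.65 after rescaling (SE 0.27, unadjusted p = 0.0427, limma adjusted p = 0.396). As deposited it was -0.046 without control 2 and -0.58 without control 1.

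Tgfb2 had a mean of 3.89 ± 2.00 FPKM in controls and 7.07 ± 3.22 FPKM after nitroglycerin, with overlapping groups (log2 difference 0.74, SE 0.36, limma adjusted p = 0.169). Inhba, which encodes the subunit of activin A, was measured at 0.784, 1.03, 2.60 and 4.35 FPKM in controls and at 3.69, 2.87, 3.60 and 7.19 FPKM after nitroglycerin. Control 4 lay above 3 of the 4 nitroglycerin values, and the log2 difference of 0.82 had an SE of 0.37 (limma adjusted p = 0.144). The rescaled differences of Tgfb2 and Inhba were 0.43 and 0.55. Over the 6 tested ligands the median log2 difference was 0.66 as deposited, and 5 of 6 were above 0 (86.6% of all genes). After rescaling the median was 0.36, and 4 of 6 were above 0 (52.4% of all genes). Bmp2 (0.0833 to 0.601 FPKM over the 8 libraries) and Inhbb, the subunit of activin B (0.101 to 0.321 FPKM), were under the filter.

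**Figure D2:**
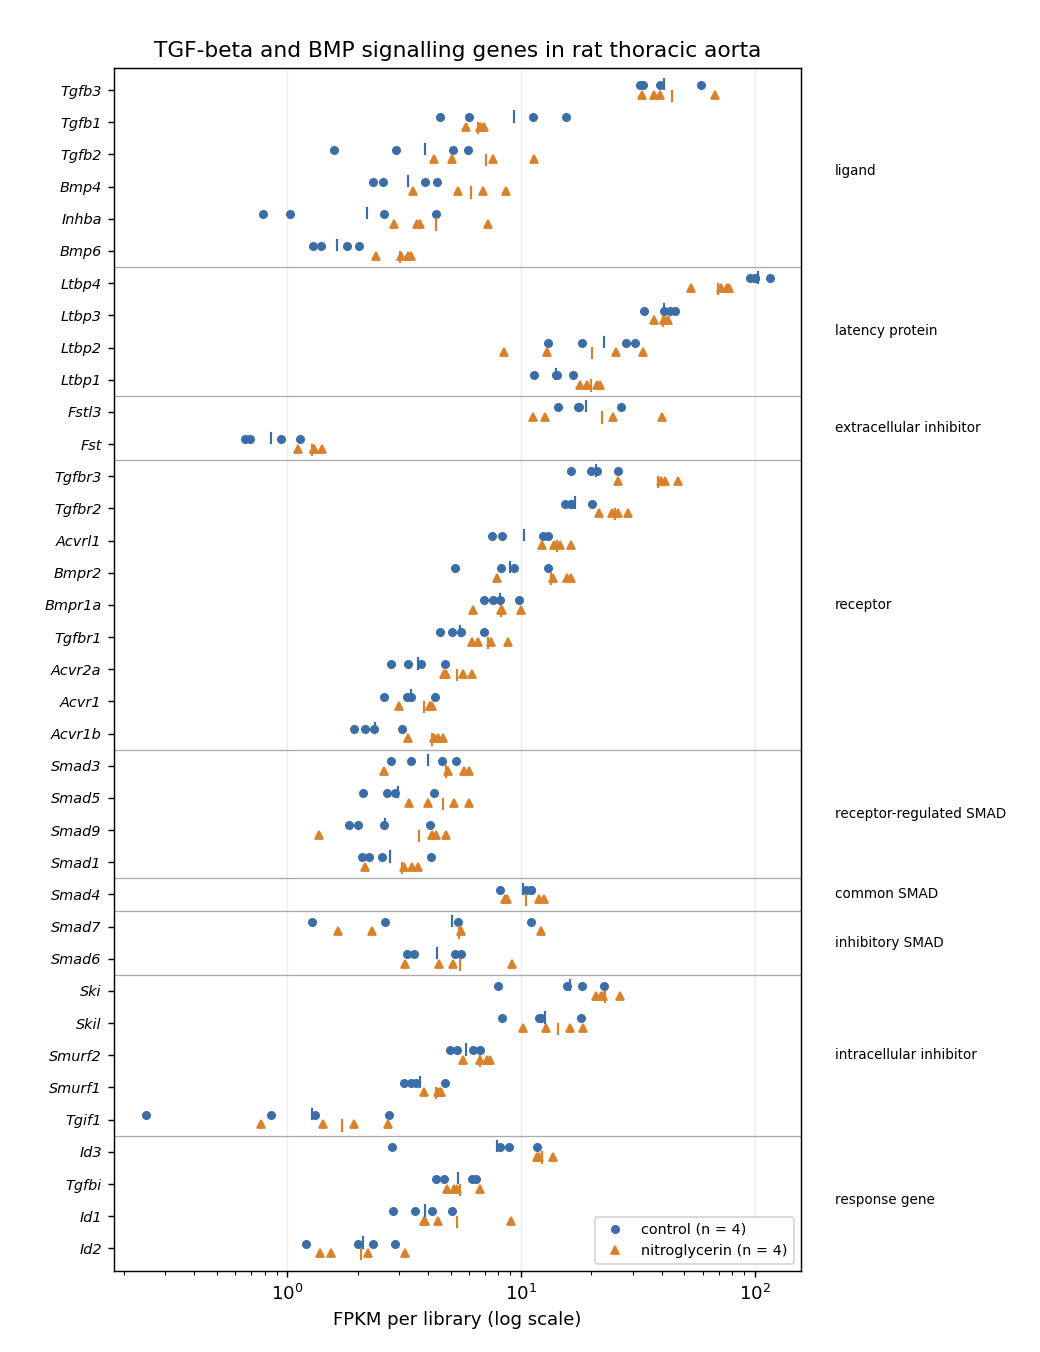
FPKM of the 37 tested genes in each library on a log axis, grouped by role, with circles for the 4 controls, triangles for the 4 nitroglycerin libraries and vertical ticks for group means. Control means run from 0.855 FPKM for Fst to 103 FPKM for Ltbp4, and the points of the groups overlap in all but 7 genes.

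All 9 tested receptors had a log2 difference above 0 as deposited, beside 86.6% of all genes, with a median of 0.46. After rescaling 7 of 9 were above 0, beside 52.4%. None passed, and 7 of 9 were above the median gene as deposited and 6 of 9 after rescaling. Tgfbr3 (betaglycan), a co-receptor that presents TGF-beta to the signalling receptors, was measured at 19.9, 26.0, 21.1 and 16.3 FPKM in controls and at 47.0, 26.1, 41.4 and 39.5 FPKM after nitroglycerin. Nitroglycerin library 2 was level with control 2, and the other 3 treated libraries stood well above all controls. Its log2 difference was 0.84 (SE 0.21, limma adjusted p = 0.0615), and 0.47 after rescaling (SE 0.18, unadjusted p = 0.0315, limma adjusted p = 0.364). Without nitroglycerin library 2 the difference as deposited was 1.01 and passed (limma adjusted p = 0.0458, where 2.05% of all genes were called higher). The adjusted p ranged up to 0.145 with another library left out, and without library 1, the one high in adipocyte markers, the difference was 0.74.

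Tgfbr2, the type II receptor of TGF-beta, was measured at 15.4, 20.1, 16.4 and 16.4 FPKM in controls and at 28.8, 21.5, 26.1 and 24.6 FPKM after nitroglycerin. All treated libraries were above all controls, with treated library 2 closest to them. Its difference in log2 was 0.54 (SE 0.14, limma adjusted p = 0.0622), and 0.17 after rescaling (limma adjusted p = 0.550). Tgfbr1, its type I partner, stood at 5.50 ± 1.03 FPKM in controls and 7.23 ± 1.17 FPKM after nitroglycerin, a difference in log2 of 0.34 (limma adjusted p = 0.144) that was 0.01 after rescaling. Within the 3 Tgfbr genes, Tgfbr3 took 43.2 to 50.0% of the summed FPKM in controls and 46.3 to 57.1% after nitroglycerin, so these shares overlapped.

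Acvr1b (ALK4), the type I receptor of activins, was measured at 2.35, 3.10, 2.16 and 1.92 FPKM in controls and at 4.63, 4.43, 3.30 and 4.23 FPKM after nitroglycerin. The groups did not overlap, with treated library 3 just above control 2. The log2 difference was 0.61 (SE 0.14, limma adjusted p = 0.0581), and 0.32 after rescaling (limma adjusted p = 0.418). Acvr2a, an activin type II receptor, was measured at 2.77, 3.73, 3.27 and 4.72 FPKM in controls and at 5.66, 4.67, 4.76 and 6.15 FPKM after nitroglycerin. Only control 4 reached the treated range. Its log2 difference was 0.46 (SE 0.15, limma adjusted p = 0.0841), and 0.15 after rescaling (limma adjusted p = 0.672).

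Acvrl1 (ALK1), the endothelial type I receptor of BMP9 and BMP10, was measured at 7.53, 8.31, 12.4 and 13 FPKM in controls and at 12.3, 14.7, 13.8 and 16.4 FPKM after nitroglycerin. Controls 3 and 4 reached the level of treated library 1. Its difference in log2 was 0.46 (SE 0.19, limma adjusted p = 0.122), and 0.11 after rescaling (limma adjusted p = 0.851). Acvrl1 and Acvr1b lie next to each other in the GRCr8 gene table, as do Smad3 and Smad6, and Smad5 and Tgfbi.

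Bmpr2, the BMP type II receptor, stood at 8.96 ± 3.24 FPKM in controls and 13.4 ± 3.86 FPKM after nitroglycerin (log2 difference 0.55, limma adjusted p = 0.194), from a row that holds no annotated transcript. Bmpr1a, a BMP type I receptor, had near-equal means of 8.10 ± 1.23 and 8.19 ± 1.56 FPKM, and its difference of 0.01 was -0.34 after rescaling. Acvr1 (ALK2), another BMP type I receptor, stood at 3.37 ± 0.701 and 3.84 ± 0.549 FPKM, with a difference of 0.15 that was -0.15 after rescaling. Acvr2b, an activin type II receptor, was under the filter at 0.292 to 1.11 FPKM.

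Endothelial markers were also higher in the nitroglycerin libraries. Of 12 listed, 10 had a row and 9 were tested. As deposited all 9 had a log2 difference above 0 (86.6% of all genes), and 2 (Esam and Eng) were called higher (1.29% of all genes). Their summed level was 39.9 to 67.8 FPKM in controls and 70.3 to 82.1 FPKM after nitroglycerin, and the mean log2 level was 2.23 ± 0.224 and 2.74 ± 0.166 (p = 0.0286 in a two-sided exact permutation test, the lowest value that 70 splits allow, n = 4). After rescaling that difference was 0.21 (exact permutation p = 0.229), 8 of the 9 tested markers were above 0 (52.4% of all genes) and 0 passed. No endothelial marker with a row was at 0 in any library, and Pecam1 and Robo4 had no row under those symbols. The part of endothelial content in the receptor values was not tested.

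**Figure D3:**
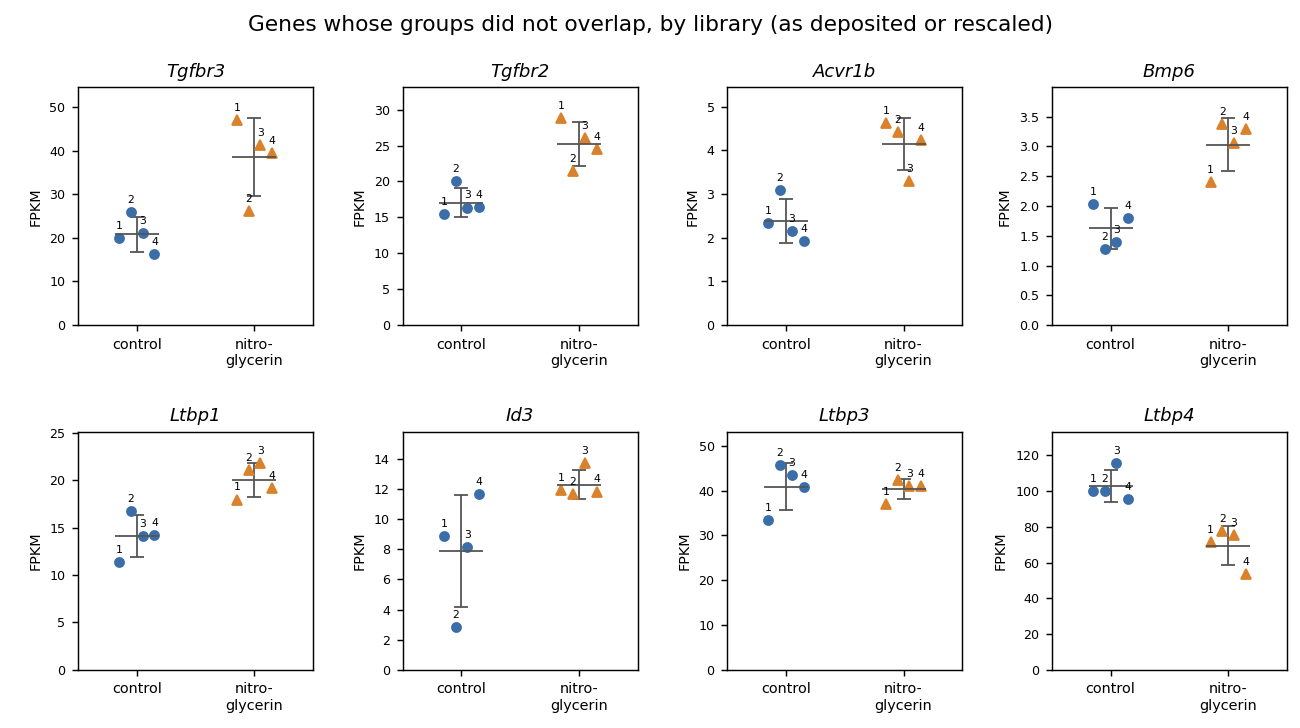
FPKM in each library, as deposited, for the 8 genes whose groups did not overlap as deposited or after rescaling, with library numbers at the points, horizontal lines at group means and bars of 1 SD (n = 4). Treated values of Tgfbr3, Tgfbr2, Acvr1b, Bmp6, Ltbp1 and Id3 are all above the controls and those of Ltbp4 all below, while Ltbp3 separates only after rescaling.

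The latency proteins differed in direction among themselves. LTBPs hold the latent TGF-beta complex in the matrix and bind fibrillin microfibrils, and Ltbp4 is known for its part in elastic fibre assembly. Ltbp4 had the highest level of all members and was measured at 100.2, 100.1, 115.8 and 95.8 FPKM in controls and at 71.5, 77.6, 75.7 and 53.4 FPKM after nitroglycerin. All treated libraries were below all controls. The log2 difference was -0.57 (SE 0.16, limma adjusted p = 0.0675), and -0.95 after rescaling (SE 0.18, unadjusted p = 0.000586, limma adjusted p = 0.0966), the lowest p of any member in that scaling.

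Ltbp1, the form best known for binding latent TGF-beta, was measured at 11.4, 16.7, 14.1 and 14.2 FPKM in controls and at 18.0, 21.1, 21.8 and 19.2 FPKM after nitroglycerin. All treated libraries were above all controls. Its difference in log2 was 0.48 (SE 0.14, limma adjusted p = 0.0706), and 0.12 after rescaling (limma adjusted p = 0.683). Ltbp3 stood at 40.9 ± 5.29 FPKM in controls and 40.4 ± 2.30 FPKM after nitroglycerin, a difference in log2 of -0.01. After rescaling its values were 45.1 to 47.8 in controls and 32.0 to 39.8 after nitroglycerin, without overlap (log2 difference -0.39, unadjusted p = 0.00303, limma adjusted p = 0.173). Ltbp2, which does not bind latent TGF-beta, ranged from 13.1 to 30.9 FPKM in controls and from 8.48 to 33.4 FPKM after nitroglycerin (log2 difference -0.27, SE 0.42, limma adjusted p = 0.658).

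Of the 8 tested smooth muscle markers, 1 was above 0 (52.4% of all genes) and 7 below after rescaling. As deposited 3 were above 0 (86.6% of all genes) and 5 below. Their mean log2 level differed by -0.53 after rescaling (two-sided exact permutation p = 0.0571, n = 4), against -0.16 as deposited (p = 0.314 by the same permutation test). None of the 8 was at 0 in any library, Tagln and Actg2 had no row under those symbols, and the part of these markers in the Ltbp3 and Ltbp4 values was not tested.

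Shares within the 4 Ltbp genes are free of library scaling. Ltbp1 took 6.57 to 9.26% of their summed FPKM in controls and 12.1 to 15.7% after nitroglycerin, with means of 7.81 ± 1.11% and 13.5 ± 1.56% (SD, n = 4). Ltbp4 took 52.7 to 62.1% in controls and 43.7 to 51.3% after nitroglycerin, with means of 57.0 ± 3.98% and 46.4 ± 3.39%. Neither pair of ranges overlapped. The share of Ltbp2 overlapped, at 12.6 ± 4.84% and 12.7 ± 5.59%. Ltbp3 took 19.4 to 25.3% and 24.3 to 33.6%. These shares were chosen for a look after the values of the genes were known and carry no test.

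**Figure D4:**
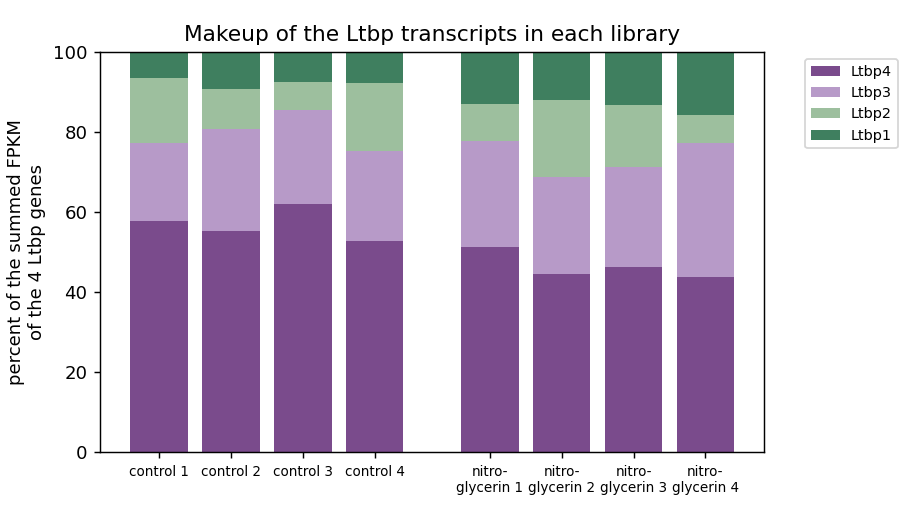
Percent of the summed FPKM of the 4 Ltbp genes taken by each gene, as 1 stacked bar per library from 0 to 100. The Ltbp1 band at the top spans 6.57 to 9.26% in the controls and 12.1 to 15.7% in the nitroglycerin libraries, and the Ltbp4 band at the bottom 52.7 to 62.1% and 43.7 to 51.3%.

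Of the extracellular inhibitors, Fstl3, a secreted binder of activins, stood at 19.0 ± 5.35 FPKM in controls and 22.2 ± 13.3 FPKM after nitroglycerin, where library 2 reached 40.0 FPKM. Fst (follistatin), also a binder of activins, was measured at 0.660, 1.13, 0.936 and 0.690 FPKM in controls and at 1.41, 1.11, 1.31 and 1.3 FPKM after nitroglycerin. Control 2 and treated library 2 were level, and the log2 difference was 0.30 (SE 0.15, limma adjusted p = 0.180). The BMP antagonists Nog (noggin) and Grem1 (gremlin) were under the filter, at 0 to 0.196 FPKM and 0 to 0.0919 FPKM. Nog was listed at 0 in controls 3 and 4 and treated library 3, and Grem1 in treated library 1.

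None of the SMAD genes that carry the signal separated the groups. Smad5, which acts downstream of BMP receptors, was measured at 2.11, 2.89, 4.25 and 2.68 FPKM in controls and at 3.31, 5.98, 5.18 and 4.00 FPKM after nitroglycerin. Control 3 reached into the treated range. Its log2 difference was 0.50 (SE 0.20, limma adjusted p = 0.118), and 0.20 after rescaling (limma adjusted p = 0.736).

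Smad1 and Smad9, the other BMP-side SMADs, had log2 differences of 0.14 and 0.32 (limma adjusted p = 0.594 and 0.448). Smad9 was lowest of all 8 libraries in treated library 1, at 1.37 FPKM, and 4.18 to 4.78 FPKM in the other 3 treated libraries. Smad3, which acts downstream of TGF-beta and activin receptors, stood at 4.01 ± 1.13 and 4.80 ± 1.54 FPKM, from a row that holds no annotated transcript. Smad4, the common partner, had near-equal means of 10.2 ± 1.41 and 10.5 ± 2.09 FPKM, with a difference of 0.03 as deposited and -0.32 after rescaling (limma adjusted p = 0.466).

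The inhibitory SMADs are themselves induced by the pathway and hold it back. Smad7, which blocks TGF-beta receptors, was measured at 11.1, 2.62, 5.37 and 1.28 FPKM in controls and at 5.56, 2.30, 12.2 and 1.65 FPKM after nitroglycerin. Both groups covered almost the same range, 9.55-fold from the lowest to the highest of the 8 libraries. The log2 difference was 0.06, and its SE of 0.61 was the largest of the tested members as deposited. Smad6, which acts mainly on BMP receptors, stood at 4.38 ± 1.17 and 5.48 ± 2.57 FPKM, with 9.15 FPKM in treated library 2.

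The 5 tested intracellular inhibitors had log2 differences above 0 as deposited (86.6% of all genes), with a median of 0.19, below that of all genes. After rescaling 2 of 5 were above 0 (52.4% of all genes). Ski, a co-repressor of SMAD complexes, stood at 16.2 ± 6.15 FPKM in controls and 23.0 ± 2.38 FPKM after nitroglycerin, and control 3 was lowest at 7.99 FPKM (log2 difference 0.56, SE 0.27, limma adjusted p = 0.169). Without control 3 the difference was 0.28. Skil (SnoN), its relative, stood at 12.6 ± 4.03 and 14.4 ± 3.62 FPKM. Smurf1 and Smurf2, ubiquitin ligases for SMADs and receptors, had differences of 0.19 and 0.18 as deposited and of -0.12 and -0.15 after rescaling. Tgif1, a nuclear co-repressor, was low and uneven, from 0.248 to 2.71 FPKM in controls and 0.770 to 2.70 FPKM after nitroglycerin.

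**Figure D5:**
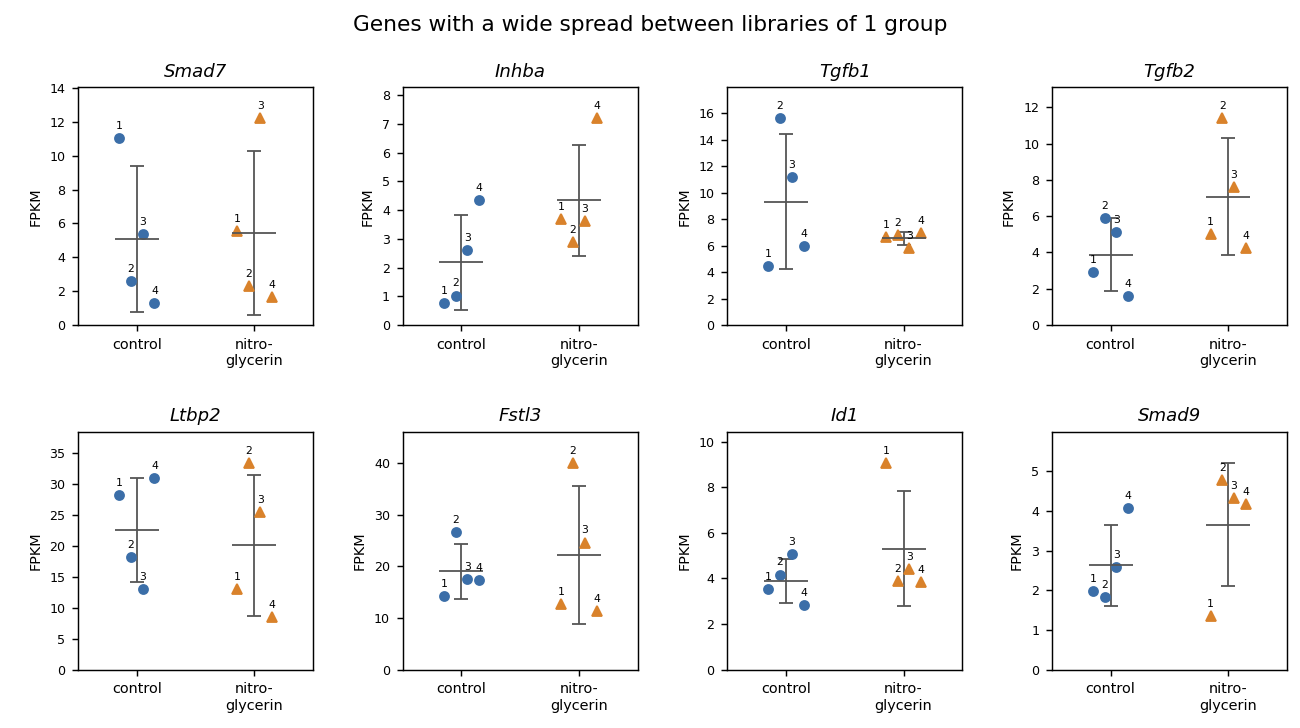
FPKM in each library for 8 genes whose libraries of 1 group spread widely, with library numbers at the points, horizontal lines at group means and bars of 1 SD (n = 4). Smad7 spans 1.28 to 11.1 in controls and 1.65 to 12.2 after nitroglycerin, and Tgfb1 spans 4.48 to 15.6 in controls but 5.82 to 6.92 after nitroglycerin.

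Response genes gave no shared direction. The Id genes encode inhibitors of helix-loop-helix transcription factors and are standard targets of BMP signalling. Id3 was measured at 8.89, 2.81, 8.15 and 11.7 FPKM in controls and at 11.9, 11.7, 13.7 and 11.8 FPKM after nitroglycerin. The groups separated only narrowly, since control 4 was just below treated library 2, and control 2 was far below the rest. Its difference in log2 was 0.71 (SE 0.33, limma adjusted p = 0.155), and 0.35 after rescaling (limma adjusted p = 0.756). Without control 2 it was 0.34 as deposited.

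Id1 stood at 3.90 ± 0.958 FPKM in controls and 5.31 ± 2.51 FPKM after nitroglycerin, where library 1 was at 9.06 FPKM and the other 3 at 3.84 to 4.43 FPKM. Its log2 difference of 0.31 (limma adjusted p = 0.370) was 0.07 without that library. Id2 had near-equal means of 2.10 ± 0.702 and 2.08 ± 0.819 FPKM. Tgfbi, a matrix protein induced by TGF-beta, had near-equal means of 5.40 ± 1.04 and 5.50 ± 0.819 FPKM.

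By level per transcript length, the members ran from Ltbp4 at 103 ± 8.78 FPKM in controls down to Nog at 0.0366 FPKM. Tgfb3 and Ltbp3 followed at 40.9 FPKM each and did not differ beyond their spread. Ltbp2, Tgfbr3, Fstl3, Tgfbr2, Ski and Ltbp1 came next, between 22.6 and 14.1 FPKM, and neighbours among them overlapped. After nitroglycerin the first 3 ranks were held by the same genes, and Tgfbr3 was at rank 4, against rank 5 in controls. In all, 14 members had a mean of at least 10 FPKM over the 8 libraries, 23 lay between 1 and 10 FPKM, and 5 were below 1 FPKM. The lowest and highest library differed at least 3-fold in 13 of the 37 tested members.

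A further 113 genes of the pathway, in 6 lists, were read in the same fit. Of these 104 had a row and 73 were tested, 1 passed as higher and 0 as lower as deposited, beside 1.29% and 0.0616% of all genes, and 0 passed after rescaling. The share that passed was near that of the table. Their median log2 difference was 0.23 as deposited, against 0.30 for all genes. The gene that passed was Eng (endoglin), an endothelial co-receptor that works with Acvrl1 and also stands in the endothelial marker list. Eng was measured at 11.1, 11.8, 10.2 and 11.4 FPKM in controls and at 15.4, 16.9, 18.1 and 18.4 FPKM after nitroglycerin. The groups did not overlap, and the log2 difference was 0.59 (SE 0.11, limma adjusted p = 0.0492). After rescaling it was 0.22 (limma adjusted p = 0.459), and with any 1 library left out the adjusted p lay between 0.0512 and 0.133.

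Among the other receptors and co-receptors, 8 of 8 tested genes had differences above 0 (86.6% of all genes) and 3 did not overlap (24.2% of all genes in the higher direction). After rescaling 7 of 8 were above 0 (52.4%) and 2 did not overlap (3.78%). Itgb8, an integrin subunit known to activate latent TGF-beta, stood at 1.91 ± 0.839 FPKM in controls and 4.43 ± 0.799 FPKM after nitroglycerin (log2 difference 0.94, limma adjusted p = 0.0573). Rgma, a BMP co-receptor, stood at 1.66 ± 0.387 and 3.08 ± 0.557 FPKM (0.62, limma adjusted p = 0.0608). The rescaled differences of Itgb8 and Rgma were 0.65 and 0.35 (limma adjusted p = 0.254 and 0.261). From the list of other ligands, which also holds the protease Bmp1, 4 genes were tested. Bmp3 stood at 1.47 ± 0.837 and 3.33 ± 0.900 FPKM (0.85, limma adjusted p = 0.0666), Gdf11 at 0.920 ± 0.551 and 1.56 ± 0.167 FPKM, and Gdf10 at 1.52 ± 0.103 and 1.54 ± 0.334 FPKM. For Gdf11, control 3 was lowest at 0.144 FPKM, and the log2 difference of 0.46 was 0.23 without that control. The rescaled differences of Bmp3, Gdf11 and Gdf10 were 0.58, 0.26 and -0.23. Bmp1, a protease that processes collagens and the BMP antagonist chordin, stood at 12.1 ± 2.59 and 10.1 ± 0.269 FPKM, and its difference of -0.22 was -0.57 after rescaling (limma adjusted p = 0.0944).

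Among 13 tested extracellular inhibitors and binders, 7 were above 0 (86.6% of all genes) and 6 below as deposited, and 0 passed. After rescaling 4 were above 0 (52.4% of all genes) and 9 below. Crim1, a membrane binder of BMPs, stood at 7.09 ± 0.812 FPKM in controls and 10.3 ± 0.808 FPKM after nitroglycerin (log2 difference 0.48, limma adjusted p = 0.0598). Chrdl1, a secreted BMP antagonist, had a difference of 0.41 (limma adjusted p = 0.0660). The small proteoglycans, which bind TGF-beta, lay on opposite sides of 0, with Dcn (decorin) at 0.80 (limma adjusted p = 0.0673) and Bgn (biglycan) at -0.23 (limma adjusted p = 0.313). The rescaled differences of Crim1, Chrdl1, Dcn and Bgn were 0.14, 0.13, 0.42 and -0.62. Dcn is also an adventitial fibroblast marker. That list's summed level, which includes Dcn itself, was 648 to 1466 FPKM in controls and 1520 to 2623 FPKM after nitroglycerin. Gsn, the gene of highest level in the list, had means of 509 and 1543 FPKM. The list's mean log2 level differed by 0.35 with overlapping groups (two-sided exact permutation p = 0.229, n = 4). Of its 10 tested genes, 7 were above 0 (86.6% of all genes) and 3 below as deposited. After rescaling 5 were above 0 (52.4% of all genes) and 5 below. The part of adventitial content in the Dcn value was not tested. The BMP antagonist Nbl1 had a difference of -0.50 (limma adjusted p = 0.413), which rested on nitroglycerin library 1, at 5.25 FPKM against 20.1 to 27.7 FPKM in the other 3, and was -0.0047 without it.

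Among 22 tested intracellular regulators, 21 had differences above 0 as deposited (86.6% of all genes) and 0 passed. The list's median was 0.25, against 0.30 for all genes. After rescaling 10 were above 0 (52.4% of all genes) and 12 below. Trim33, a ubiquitin ligase that acts on SMAD4 complexes, stood at 2.15 ± 0.306 FPKM in controls and 3.44 ± 0.448 FPKM after nitroglycerin (log2 difference 0.50, limma adjusted p = 0.0598). Zfyve9 (SARA), which brings SMADs to the receptor, had a difference of 0.53 (limma adjusted p = 0.0639), and Dab2, an adaptor, one of 0.56 (limma adjusted p = 0.0734). Hipk2, a nuclear kinase, was the one gene of this list below 0 as deposited, at -0.20 (limma adjusted p = 0.291). The rescaled differences of Trim33, Zfyve9, Dab2 and Hipk2 were 0.21, 0.23, 0.23 and -0.53.

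Among 20 tested TGF-beta response genes, 12 were above 0 (86.6% of all genes) and 8 below as deposited. After rescaling 7 were above 0 (52.4% of all genes) and 13 below, and 0 passed in either scaling. The matrix genes of lowest p were on the lower side. Col1a1, the fibrillar collagen I chain, had a difference in log2 of -0.61 (limma adjusted p = 0.0697) and of -1.0 after rescaling (limma adjusted p = 0.0822). Eln (elastin) stood at 1660.1 ± 518 FPKM in controls and 966 ± 371 FPKM after nitroglycerin, a difference of -0.81 (limma adjusted p = 0.122). Fn1 (fibronectin) stood at 152 ± 9.43 and 114 ± 26.6 FPKM, a difference of -0.44 (limma adjusted p = 0.127). The rescaled differences of Eln and Fn1 were -1.20 and -0.83 (limma adjusted p = 0.283 and 0.153). On the higher side, Bhlhe40, a transcription factor that is also part of the circadian clock, stood at 0.972 ± 0.385 and 3.62 ± 1.39 FPKM (1.19, limma adjusted p = 0.0513). Itgb5, an integrin subunit, and Ldlrad4, an inhibitor of SMAD activation, had differences of 0.38 and 0.70 (limma adjusted p = 0.0920 and 0.126). The rescaled differences of Itgb5 and Ldlrad4 were 0.0083 and 0.35 (limma adjusted p = 0.986 and 0.611), and that of Bhlhe40 was 0.96.

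Of 7 tested BMP response genes, 6 were above 0 as deposited (86.6% of all genes) and 0 passed. After rescaling 4 were above 0 (52.4% of all genes) and 3 below. Lmo2, a transcription cofactor of blood and endothelium, stood at 1.52 ± 0.216 FPKM in controls and 2.68 ± 0.625 FPKM after nitroglycerin (log2 difference 0.53, limma adjusted p = 0.0663). Gata2, an endothelial and blood transcription factor, had a difference of 0.38, and Hes1, also a target of Notch signalling, one of 0.64 (limma adjusted p = 0.119 and 0.12). The rescaled differences of Lmo2, Gata2 and Hes1 were 0.27, 0.14 and 0.37. Id4, another Id gene, had near-equal means of 1.60 ± 0.443 and 1.54 ± 0.779 FPKM. Macrophage markers were also higher after nitroglycerin, with a summed level of 54.6 to 61.5 FPKM in controls and 74.1 to 106 FPKM in treated libraries. Their mean log2 level differed by 0.51 (two-sided exact permutation p = 0.0286, n = 4). Of 11 tested, 10 were above 0 (86.6% of all genes) and 1 (Cd163) was called higher (1.29% of all genes). After rescaling 8 of 11 were above 0 (52.4% of all genes) and 0 passed. The rescaled difference in mean log2 level was 0.20 (exact permutation p = 0.114), and the part of macrophage content in the pathway values was not tested.

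The deposited table of predicted long non-coding RNAs (lncRNAs) held 2 transcripts assigned to a member, both marked as lying within an intron. One, at Tgfbr1, has 2 exons at chr5:63060917-63070262 on the plus strand and was measured at 0.571, 0.902, 0.515 and 0.995 FPKM in controls and at 1.42, 1.21, 0 and 0.944 FPKM after nitroglycerin. The other, at Ltbp1, has 2 exons at chr6:21370858-21376150 on the minus strand and was measured at 2.39, 3.71, 3.28 and 0.428 FPKM in controls and at 3.84, 0, 5.64 and 2.97 FPKM after nitroglycerin. Each was listed at 0 in 1 treated library, and the groups overlapped. On the log2(FPKM + 0.1) scale the differences were -0.28 and -0.32 (limma adjusted p = 0.940 and 0.956), and neither had an unadjusted p under 0.05. A value of 0 weighs heavily on this scale. In each transcript, all treated values other than the 0 lay within or above the control range. Of 2390 lncRNA transcripts tested, 0% were called higher and 0.0418% lower. These coordinates are those of the table, whose build is given in the notes without saying which step used it.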

How the data were processed

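Thoracic aorta RNA was compared between 4 control and 4 nitroglycerin libraries, grouped by GEO's labels. Per the submitters' processing notes, the tools were Bowtie 0.12.2, HISAT2 2.0 and StringTie 1.3.0 and the builds mm8 and Rnor_6.0, whose roles are not given. Gene values were deposited as FPKM, in 27742 rows for the 8 libraries, and 19625 rows hold an annotated transcript. For 4686 predicted lncRNA transcripts the deposited values are FPKM, coverage and coding-potential scores, per the file headers. The ratio of deposited coverage to FPKM gave the aligned sequence per library. The depth in counts is unknown.

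The 12977 gene rows that reached 1 FPKM in 4 or more libraries were tested as log2(FPKM + 1), and the 2390 lncRNA transcripts that reached 0.1 FPKM in 4 or more as log2(FPKM + 0.1). Differences on these scales understate those of low genes. The test was limma 3.58.1 (R 4.3.3, eBayes with trend), with p-values adjusted by Benjamini-Hochberg over all rows tested and a threshold of 0.05, and its steps were tested on simulated data. Median-of-ratios factors ranged over 0.742 to 0.996 for control and 1.07 to 1.22 for nitroglycerin libraries. Marker lists were compared by exact permutation over 70 splits. Python 3.11.15, pandas 2.3.3 and matplotlib 3.10.9 were used for tables and plots.

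The members and gene lists were chosen with earlier results of these data known. All 43 members are given, with full statistics for the 10 of lowest p. Other pathway genes are named where they passed, and otherwise as the 3 of lowest p per list and direction. Of these, 1 gene is not reported here. Alternatives covered pseudocount, filter, scaling, variance model, rows used, replicate block, an adipocyte covariate and each library left out. Since nothing says that libraries came from separate rats, p-values reflect spread that may be technical. All 43 symbols were found in the RefSeq gene table of GRCr8, used only for promoters and neighbouring genes, and 35 had a single promoter entry.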

Additional observations from a re-analysis of the deposited data

Results flagged for a closer look

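Within the 4 nitroglycerin libraries, 3 members had 1 library apart from the other 3, judged against the range of the 4 values. The gap itself can be small by that rule, as for Id3. Acvr1 was at 3.02 FPKM in library 4 and at 4.09 to 4.16 FPKM in the others. Id1, a BMP target, was at 9.06 FPKM in library 1 and at 3.84 to 4.43 FPKM in the others. Id3 was at 13.7 FPKM in library 3 and at 11.7 to 11.9 FPKM in the others. These were 3 of 84 groups examined (3.57%), and chance marks about 1 group in 20.

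A second row under the symbol Acvr2b, which holds no annotated transcript and entered no comparison, was at 1.51 FPKM in nitroglycerin library 1 and 0.782 FPKM in library 2. It was listed at 0 in the other 2 nitroglycerin libraries and in all 4 controls. Tgfbr1, Ltbp1, Tgif1 and Smurf1 also had a second row without an annotated transcript. That of Tgif1 was at 0.256 FPKM in control 4, at 1.62 and 0.787 FPKM in nitroglycerin libraries 2 and 3, and at 0 elsewhere. The Smurf1 one ranged from 0 to 1.12 FPKM in controls and from 0 to 1.38 FPKM after nitroglycerin. Those of Tgfbr1 and Ltbp1 are the predicted lncRNA transcripts given above.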

How the results depend on the processing

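The members called, 0 as reported, numbered 7 with libraries weighted by residual spread (Bmp4, Bmp6, Tgfbr2, Tgfbr3, Acvr1b and Ltbp1 higher, Ltbp4 lower), 4 over annotated rows only (Bmp6, Tgfbr2, Tgfbr3 and Acvr1b higher), and 0 to 1 with a library left out, the 1 being Tgfbr3 without nitroglycerin library 2. They numbered 0 under every other alternative run, and 0 after rescaling with any library left out. All genes called, 175 as reported, numbered 7 at pseudocount 0.1, 26 unfiltered, 56 with a mean filter, 17 after rescaling, 15 after quantile normalization, 1936 with weights, 828 over annotated rows, 30 with rows of a symbol summed and 4 with an adipocyte covariate. Left-out libraries gave 5 (without control 4 or nitroglycerin 4) to 284 (without nitroglycerin 2). Other pathway genes called, 1 as reported, numbered 13 with weights, 6 over annotated rows and 2 with robust variances, and 0 with the pseudocount, no filter, the mean filter, both scalings, summed rows or the covariate. With a library left out they numbered 0 to 1, and the 1, without control 2, was Dcn and not Eng. With the replicate number as a block, 0 members, 0 other pathway genes and 0 of all genes were called, also after rescaling. Libraries sharing a number correlated at -0.012 to 0.13 in their deviations from group means, and those of unlike number at -0.18 to 0.087. Not every library correlated best with its own number. The cause of these differences was not tested.

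The lists in this paragraph also hold Gdf10, Id4 and Nbl1, which are other pathway genes and not members. The sign of a log2 difference changed in at least 1 alternative for 24 of 37 members, none of which passed as reported, and in none for 13. After rescaling, with the same values under the block, it lay on the other side of 0 for Tgfb3 at -0.29, Bmpr1a at -0.34, Acvr1 at -0.15, Fstl3 at -0.30, Smad1 at -0.14, Smad3 at -0.12, Smad4 at -0.32, Smad6 at -0.10, Smad7 at -0.25, Skil at -0.17, Smurf1 at -0.12, Smurf2 at -0.15, Id1 at -0.00023, Tgfbi at -0.30 and Gdf10 at -0.23. After quantile normalization these were Tgfb3 at -0.16, Bmpr1a at -0.28, Acvr1 at -0.15, Fstl3 at -0.21, Smad1 at -0.15, Smad3 at -0.10, Smad4 at -0.25, Smad6 at -0.092, Smad7 at -0.24, Skil at -0.084, Smurf1 at -0.12, Smurf2 at -0.11, Tgfbi at -0.28 and Gdf10 at -0.26. With weights they were Tgfb3 at -0.11 and Smad4 at -0.025, and with the covariate Bmpr1a at -0.015, Ltbp3 at 0.067, Smad4 at -0.0087, Smad7 at -0.20, Id2 at 0.13, Id4 at 0.10 and Nbl1 at 0.051. With a library left out as deposited, ranges that crossed 0 were Tgfb3 -0.13 to 0.28, Bmpr1a -0.086 to 0.12, Ltbp2 -0.56 to 0.059, Ltbp3 -0.10 to 0.047, Fstl3 -0.27 to 0.31, Smad4 -0.067 to 0.11, Smad6 -0.024 to 0.40, Smad7 -0.38 to 0.49, Id2 -0.18 to 0.10, Tgfbi -0.054 to 0.11, Gdf10 -0.069 to 0.086 and Id4 -0.26 to 0.032. With a library left out after rescaling they were Tgfbr1 -0.11 to 0.089, Bmpr2 -0.025 to 0.41, Acvrl1 -0.032 to 0.21, Smad3 -0.21 to 0.059, Smad9 -0.12 to 0.32, Smad6 -0.37 to 0.10, Smad7 -0.67 to 0.26, Ski -0.11 to 0.32, Tgif1 -0.17 to 0.38, Id1 -0.24 to 0.12 and Id3 -0.069 to 0.55. Ranges that kept their sign but moved by over 1.5 times included those of Tgfb2 0.47 to 0.95, Bmpr2 0.34 to 0.76, Smad9 0.19 to 0.62 and Tgif1 0.054 to 0.58, as deposited. Marker differences, 0.51 each for endothelial and macrophage lists, were 0.21 and 0.20 after rescaling, and the endothelial one was 0.65 at pseudocount 0.1 (exact permutation p = 0.0571). The adventitial difference was -0.021 after rescaling, and the skeletal muscle one, -0.15 as deposited, was -0.37 (exact permutation p = 0.0286). These marker alternatives and those of the other pathway genes were chosen after seeing the data.

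Read counts per gene were not analysed here, so no interval on counts was computed, and with 4 libraries a group the spread between libraries sets the precision.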
